A study of Homo sapiens with 12 samples.

Results

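The genes of cholesterol synthesis and sterol regulation formed a module of 36 genes, chosen by symbol and described in HK2 cells, an established line derived from the proximal tubule of a human kidney. The rule was a list of gene names, drawn up with earlier results of these data known, and the members were 36 of the 58278 genes counted in each library. All 36 members passed the filter on low counts, which kept 24342 genes. There were 6 groups of 2 biological replicates each. Ctrl cells were untreated, and TN cells were given TNF-α, an inflammatory cytokine, at 5 ng/mL for 3 h. PRTN cells were given propionate at 15 mM, and BUTN cells butyrate at 3 mM, for 24 h before the same dose of TNF-α for 3 h. TNPR and TNBU cells were given TNF-α first, for 3 h at 5 ng/mL, and then 15 mM propionate or 3 mM butyrate for 24 h. Propionate and butyrate are short-chain fatty acids (SCFA) made by gut bacteria from dietary fibre. All 4 SCFA groups received TNF-α, so the effect of an SCFA alone was not measured, and the doses of propionate and butyrate differed. TNPR and TNBU also differed from TN in the time between TNF-α and harvest, and cells kept for 24 h after TNF-α without SCFA were not analysed here, so SCFA and time cannot be told apart in these groups. The medium contained serum, which is a source of sterols, and HK2 is a single cell line. One general treatment text among the labels names other compounds (thapsigargin and JQ1), and the groups above follow the label of each library.

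Cells build cholesterol from acetyl-CoA through mevalonate, isoprenoid diphosphates, squalene and lanosterol. When sterols in the endoplasmic reticulum are low, SCAP escorts the membrane-bound transcription factors encoded by SREBF1 and SREBF2 to the Golgi, where proteases release them to raise the genes of synthesis and uptake. When sterols are plentiful, the INSIG proteins hold SCAP in the endoplasmic reticulum. Oxysterols activate the liver X receptors (LXR, encoded by NR1H2 and NR1H3), which raise genes of sterol export and MYLIP, a ubiquitin ligase that marks lipoprotein receptors for degradation. Cholesterol taken up with lipoproteins leaves the lysosome through NPC2 and NPC1. The proximal tubule reabsorbs filtered proteins and lipids and is rich in this endocytic traffic.

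Since the members share a known regulatory system, the bases before their transcription starts were read from RefSeq (GRCh38.p14) for the 250 bases upstream of the start. A start was given for 32 of the 36 members, and ACAT2, SQLE, FDFT1 and FASN were not among them. The 6 sequences below belong to a pair of members lower in SCFA-treated cells (HMGCS1 and CYP51A1), to 3 members higher in them (PMVK, NPC1 and MYLIP) and to SREBF2, which encodes the sterol-responsive factor itself. They run from 5′ to 3′ on the strand of the gene, and 4 of them are the whole 250 bases up to the base before the start. For HMGCS1 and CYP51A1 the 150 and 162 bases outside the untranslated exons of longer GENCODE transcripts are shown. Capitals mark a match on either strand to a sterol regulatory element (TCACNCCAC), a CCAAT box, an E-box with the letters CACGTG, or a GC box with the letters GGGCGG.
HMGCS1 (chr5:43313513-43313662, minus strand): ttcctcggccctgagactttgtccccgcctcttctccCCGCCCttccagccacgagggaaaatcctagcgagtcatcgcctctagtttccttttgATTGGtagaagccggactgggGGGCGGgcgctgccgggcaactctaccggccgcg
CYP51A1 (chr7:92134504-92134665, minus strand): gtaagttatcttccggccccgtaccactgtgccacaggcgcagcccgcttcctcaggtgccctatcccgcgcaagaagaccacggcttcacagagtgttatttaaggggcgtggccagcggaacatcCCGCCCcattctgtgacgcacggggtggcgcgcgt
PMVK (chr1:154936720-154936969, minus strand): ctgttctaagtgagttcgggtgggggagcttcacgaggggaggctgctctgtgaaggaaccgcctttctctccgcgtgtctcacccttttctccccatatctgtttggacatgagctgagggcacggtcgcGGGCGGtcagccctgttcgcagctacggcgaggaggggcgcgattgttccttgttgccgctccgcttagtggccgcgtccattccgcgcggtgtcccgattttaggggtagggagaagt
NPC1 (chr18:23586507-23586756, minus strand): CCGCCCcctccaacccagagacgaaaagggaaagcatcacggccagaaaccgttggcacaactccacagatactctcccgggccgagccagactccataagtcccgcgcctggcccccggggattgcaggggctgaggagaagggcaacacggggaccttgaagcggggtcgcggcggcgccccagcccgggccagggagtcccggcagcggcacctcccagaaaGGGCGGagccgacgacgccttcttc
MYLIP (chr6:16128836-16129085, plus strand): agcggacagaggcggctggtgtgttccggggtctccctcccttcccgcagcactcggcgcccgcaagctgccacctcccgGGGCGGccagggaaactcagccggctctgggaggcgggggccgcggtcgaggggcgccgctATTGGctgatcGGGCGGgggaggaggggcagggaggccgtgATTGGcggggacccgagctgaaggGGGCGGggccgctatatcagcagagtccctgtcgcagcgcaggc
SREBF2 (chr22:41832855-41833104, plus strand): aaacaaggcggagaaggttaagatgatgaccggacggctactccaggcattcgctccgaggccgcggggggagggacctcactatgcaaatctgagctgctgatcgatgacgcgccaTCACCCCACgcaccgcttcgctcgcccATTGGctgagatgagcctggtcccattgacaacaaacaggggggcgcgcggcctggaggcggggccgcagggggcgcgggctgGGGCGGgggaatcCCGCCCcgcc
The sterol regulatory element was matched before 1 of the 32 members, SREBF2, where it starts 133 bases before the transcription start and stands in capitals ahead of the CCAAT box. Of 35116 RefSeq windows of the same length, 0.883% held it. The E-box was matched before INSIG1, SC5D and SCAP, that is 3 of the 32, against 6.34% of all windows. A CCAAT box stood before 22 of the 32 members, against 32% of all windows, and a GC box before 30 of the 32, against 42.6%. Before the 5 members shown that were called in all 4 SCFA groups the letters differed: over the whole window HMGCS1 and MYLIP have 2 CCAAT boxes each (1 of those of HMGCS1 lies past the bases shown), while CYP51A1, PMVK and NPC1 have 0. A match describes letters in this window and is not a site shown to be bound, and no binding was measured. Only these exact letters were searched in 250 bases, so a missing match does not show that an element is absent.

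**Figure D1:**
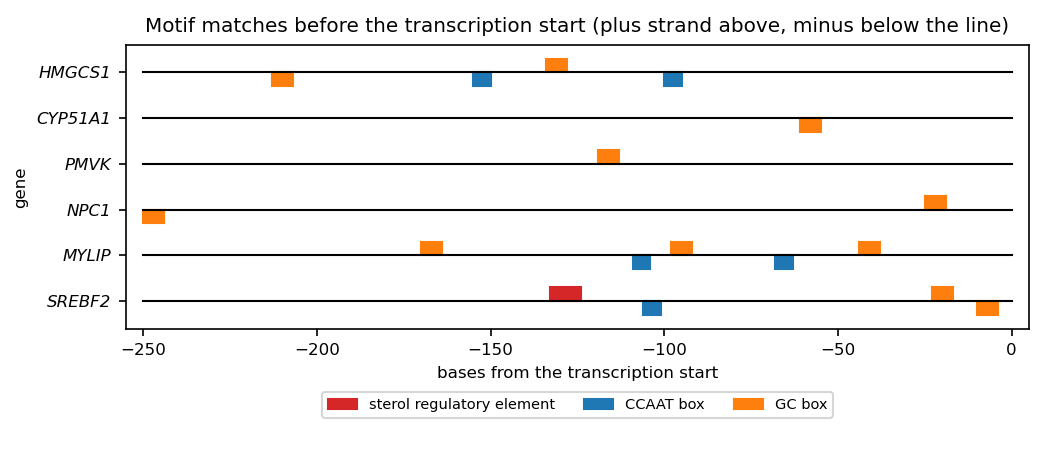
Position of motif matches in the 250 bases before the transcription start of 6 sterol genes (x axis, bases from the start; boxes above the line, plus strand of the gene; below, minus strand). The sterol regulatory element of SREBF2 starts 133 bases before its start, and CYP51A1 and PMVK hold 1 GC box each and no other match.

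Libraries summed to between 27269986 and 33851130 expected counts (median 30545923), and the members took 0.350% to 0.397% of them. Levels are given as CPM, the count scaled to a common library size, here with TMM factors of 0.913 to 1.06. Mitochondrial genes held 5.86% to 9.46% of the counts. Replicates of every group differed by more than sampling noise, with a chi-square per gene of 3.17 (BUTN) to 18.1 (TNBU), and the members' replicates differed by a median of 0.0321 (PRTN) to 0.124 (TN) on the log2 scale, NPC1L1 left out. Of 10 proximal tubule markers, 4 reached 1 CPM in Ctrl, and LRP2 and HNF4A were at 0 there. Their summed level was 576 to 627 CPM in Ctrl and TN and 217 to 251 CPM in the SCFA groups, and 5 or 6 of the 10 reached 1 CPM there. Other marker lists moved with SCFA too: 5 epithelial markers summed to 1116 to 1215 CPM without SCFA and 1729 to 2318 CPM with it, 4 fibroblast markers to 49.0 to 55.6 and 199 to 247 CPM, 4 endothelial markers to 0.143 to 0.287 and 2.21 to 3.64 CPM, and 4 leukocyte markers to 30.4 to 36.3 and 27.4 to 52.2 CPM. Their part in the results was not tested.

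To see whether TNF-α alone altered the module, TN was compared with Ctrl. None of the 36 members was called in either direction, a call being a fold change over 1.5 with an adjusted p under 0.05 in limma-voom, where 1.3% of all tested genes were called. At an unadjusted p under 0.05 the members numbered 8 of 36 and all tested genes 17%, and edgeR and DESeq2 also called 0 members. The median log2 fold change was 0.01 for the members and -0.01 for all genes. At an adjusted p under 0.05 with no limit on the fold, 1 member was higher and 1 lower, against 2.26% and 1.25% of all genes. SOAT1, which esterifies cholesterol for storage, had 126 and 129 CPM in Ctrl and 159 and 151 CPM in TN (log2 fold change 0.29 ± 0.07 SE, adjusted p = 0.0498). TM7SF2, a sterol reductase, had 12.3 and 11.3 CPM in Ctrl and 6.96 and 8.87 CPM in TN (-0.58 ± 0.13, adjusted p = 0.0354), which lies just inside the 1.5-fold limit. TM7SF2 passed that limit when TN replicate 2 was left out (-0.76). Over the settings tried, neither SOAT1 (log2 fold change 0.23 to 0.33) nor TM7SF2 (-0.76 to -0.41) kept an adjusted p under 0.05 throughout. Neither gene's libraries overlapped between the groups, which happens easily with 2 libraries a group. Those of FDPS, for example, did not overlap either (adjusted p = 0.761 in limma-voom).

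The comparison of each SCFA group with TN asks how the module stood when SCFA was present with the cytokine. In PRTN, 6 members rose and 3 fell, against 23.9% and 16.7% of all tested genes. In BUTN, 4 rose and 5 fell, against 23.1% and 14.8%. TNPR had 6 rises and 4 falls (24.9% and 16.9% of all genes), and TNBU likewise 6 and 4 (25% and 16.5%). In either direction, 9, 9, 10 and 10 of the 36 members were called, beside 40.6%, 37.9%, 41.8% and 41.6% of all genes, a description with no test. Among genes with a mean of at least 10 CPM, 7, 7, 8 and 8 of 32 members were called, while 41.2%, 36.2%, 42.9% and 41.6% of such genes were. Without the limit on the fold, 12 members were higher and 16 lower in PRTN at an adjusted p under 0.05 (30.6% and 25.8% of all genes). BUTN had 8 higher and 20 lower (29.7% and 25.4%), TNPR 13 and 14 (31.6% and 26%), and TNBU 12 and 16 (31.3% and 26%). The median log2 fold change of the members was -0.16, -0.31, -0.11 and -0.14 in PRTN, BUTN, TNPR and TNBU, and that of all genes 0.09, 0.08, 0.12 and 0.09. Among tested genes with a mean of at least 10 CPM, where 32 of the members lie, the median was -0.11, -0.13, -0.12 and -0.14. In TNPR and TNBU the members' median was thus close to that of genes at such levels. These comparisons share the TN libraries. Where 4 log2 fold changes against TN are listed without a group, they are those of PRTN, BUTN, TNPR and TNBU in that order, followed by the adjusted p in parentheses.

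**Figure D2:**
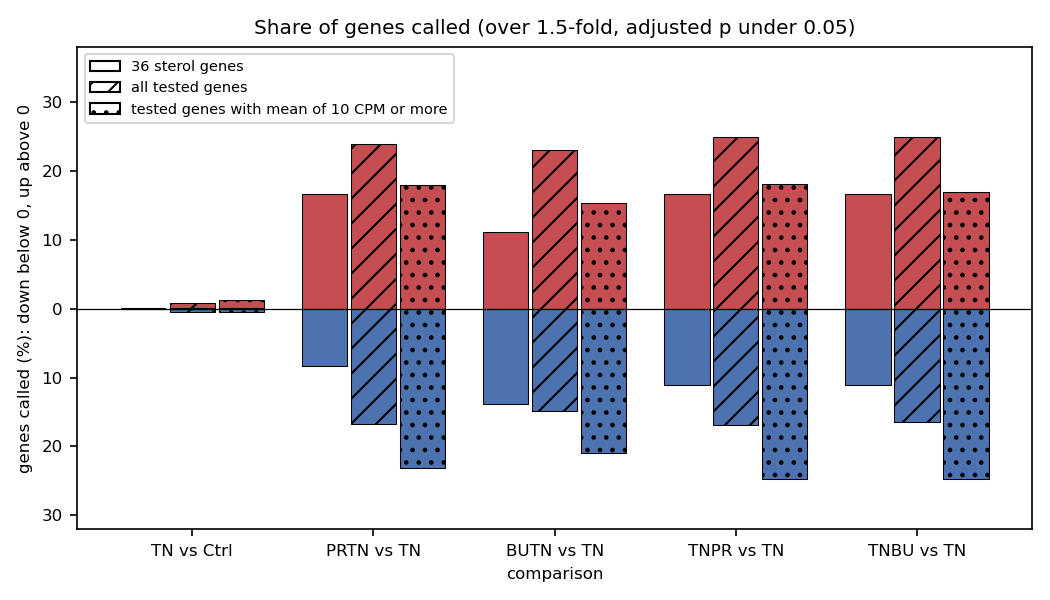
Share of genes called up (red, above 0) and down (blue, below 0) in 5 comparisons (y axis, percent; x axis, comparison) for the 36 sterol genes (plain bars), all tested genes (hatched) and tested genes with a mean of 10 CPM or more (dotted). Against TN the plain bars are shorter than the hatched ones in both directions, for example 4 of 36 members up in BUTN against 23.1% of all genes.

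Across the SCFA groups, 4 members rose in all 4 SCFA groups (PMVK, NPC1, NPC1L1 and MYLIP) and 3 fell in all 4 (ACAT2, HMGCS1 and CYP51A1). A further 5 were called in 1 to 3 groups (NSDHL, DHCR7, INSIG2, NPC2 and STARD4), and 24 were called in none. The share of all tested genes called alike in all 4 groups was not counted, here or for the counts by role below. Each single comparison called 37.9% to 41.8% of all tested genes, and the comparisons share TN. The falls in all 4 groups lay at the entry of the pathway and at lanosterol. The rises in all 4 lay in 1 mevalonate kinase step, in lysosomal and membrane transport and in the LXR target. This is a description with no test.

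**Figure D3:**
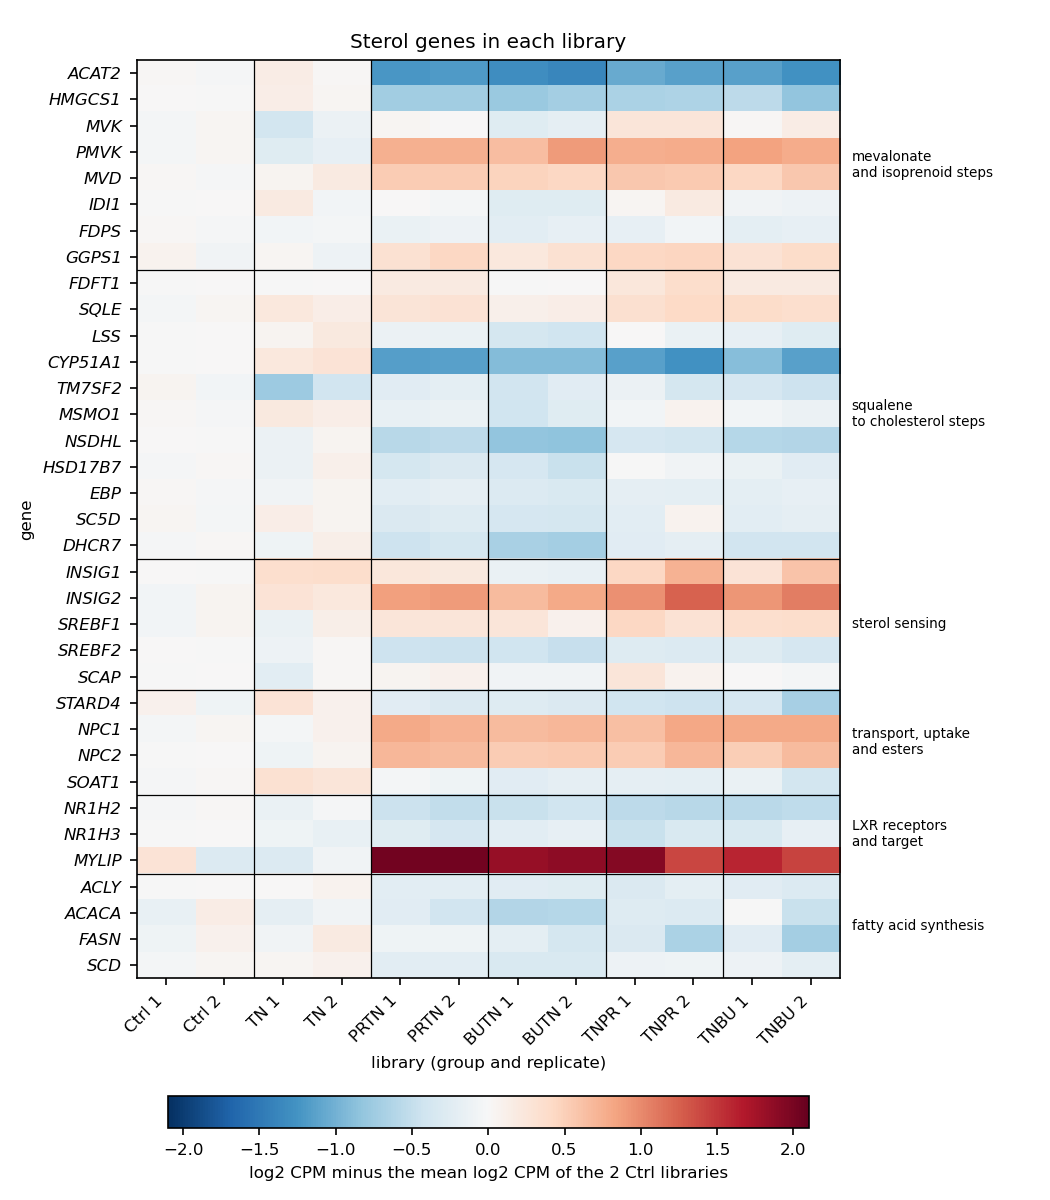
Expression of 35 sterol genes (rows, by role) in the 12 libraries (columns), as log2 CPM minus the mean log2 CPM of the 2 Ctrl libraries (red higher, blue lower). NPC1L1 is left out because its counts are too low. ACAT2 and CYP51A1 are blue and PMVK, NPC1, INSIG2 and MYLIP red in all 8 SCFA libraries.

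Of the 8 members that carry carbon from acetyl-CoA to the isoprenoids, 1 rose and 2 fell in every SCFA group against TN. ACAT2, which joins acetyl-CoA units at the entry of the pathway (chr6:159762045-159779112), had 157 and 153 CPM in Ctrl and 172 and 158 in TN. PRTN had 66.3 and 68.2 CPM, BUTN 62.7 and 60.3, TNPR 74.4 and 70.7, and TNBU 70.3 and 64.3. All 8 SCFA libraries lay far below the 4 without SCFA. ACAT2 thus fell 2.45-fold in PRTN (log2 fold change -1.29 ± 0.07 SE, adjusted p = 9.17e-09), 2.69-fold in BUTN (-1.43 ± 0.07, 6.87e-09), 2.27-fold in TNPR (-1.19 ± 0.07, 1.66e-08) and 2.45-fold in TNBU (-1.30 ± 0.07, 1.09e-08). The annotation places SOD2 and TCP1 on the opposite strand of ACAT2. SOD2 fell against TN in the 4 SCFA groups by 2.03 to 2.43 on the log2 scale, and rose in TN against Ctrl (1.32 ± 0.06, adjusted p = 6.46e-07). ACAT2 had a log2 fold change of 0.09 in TN against Ctrl, and TCP1 of 0.11 to 0.24 against TN. The part of these neighbours in the counts of ACAT2 was not tested.

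HMGCS1 (chr5:43287470-43313512) makes HMG-CoA, a precursor of mevalonate. Its level was 211 and 208 CPM in Ctrl and 232 and 216 in TN, while PRTN had 127 and 126, BUTN 123 and 127, TNPR 133 and 134, and TNBU 143 and 118. The highest SCFA library was below the lowest library without SCFA. HMGCS1 fell 1.77-fold in PRTN (-0.82 ± 0.08, adjusted p = 1.4e-06), 1.79-fold in BUTN (-0.84 ± 0.08, 1.5e-06), 1.67-fold in TNPR (-0.74 ± 0.08, 3.34e-06) and 1.72-fold in TNBU (-0.78 ± 0.08, 2.46e-06). With scaling by library size alone, its log2 fold change was -0.57 in TNPR and -0.58 in TNBU, just inside the limit.

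PMVK, the kinase that makes mevalonate diphosphate (chr1:154924740-154936719), went the other way. It had 16.7 and 17.5 CPM in Ctrl and 14.4 and 15.3 in TN, while PRTN had 28.8 and 28.6, BUTN 26.8 and 32.0, TNPR 29.1 and 29.2, and TNBU 30.7 and 29.3. Every SCFA library exceeded every other library. The rise was 1.93-fold in PRTN (0.95 ± 0.09, adjusted p = 2.62e-06), 1.98-fold in BUTN (0.98 ± 0.09, 2.38e-06), 1.97-fold in TNPR (0.98 ± 0.09, 2.06e-06) and 2.02-fold in TNBU (1.02 ± 0.10, 1.65e-06). Its counts were whole numbers in every library.

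The other 5 genes of these steps were not called in any SCFA group. IDI1, the isomerase that makes the reactive isoprenoid unit, had 67.5 and 68.6 CPM in Ctrl and 77.7 and 65.3 in TN, while PRTN had 68.7 and 66.5, BUTN 57.0 and 56.8, TNPR 70.1 and 77.4, and TNBU 65.0 and 63.5. The BUTN libraries were the lowest, and the log2 fold changes against TN were -0.08 ± 0.08 (adjusted p = 0.446), -0.32 ± 0.08 (0.00457), 0.05 ± 0.08 (0.64) and -0.15 ± 0.08 (0.137) in PRTN, BUTN, TNPR and TNBU. FDPS, which makes farnesyl diphosphate, was close to level across the groups. It had 203 and 194 CPM in Ctrl and 191 and 193 in TN, while PRTN had 179.7 and 184, BUTN 171 and 177, TNPR 177 and 191, and TNBU 172 and 177. Its log2 fold changes were -0.08 (adjusted p = 0.233), -0.14 (0.0441), -0.07 (0.328) and -0.14 (0.0507), each ± 0.06. MVK, MVD and GGPS1, a kinase, a decarboxylase and the branch enzyme towards protein prenylation, had log2 fold changes of 0.03 to 0.51, and MVD and GGPS1 had an adjusted p under 0.05 in all 4 groups.

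**Figure D4:**
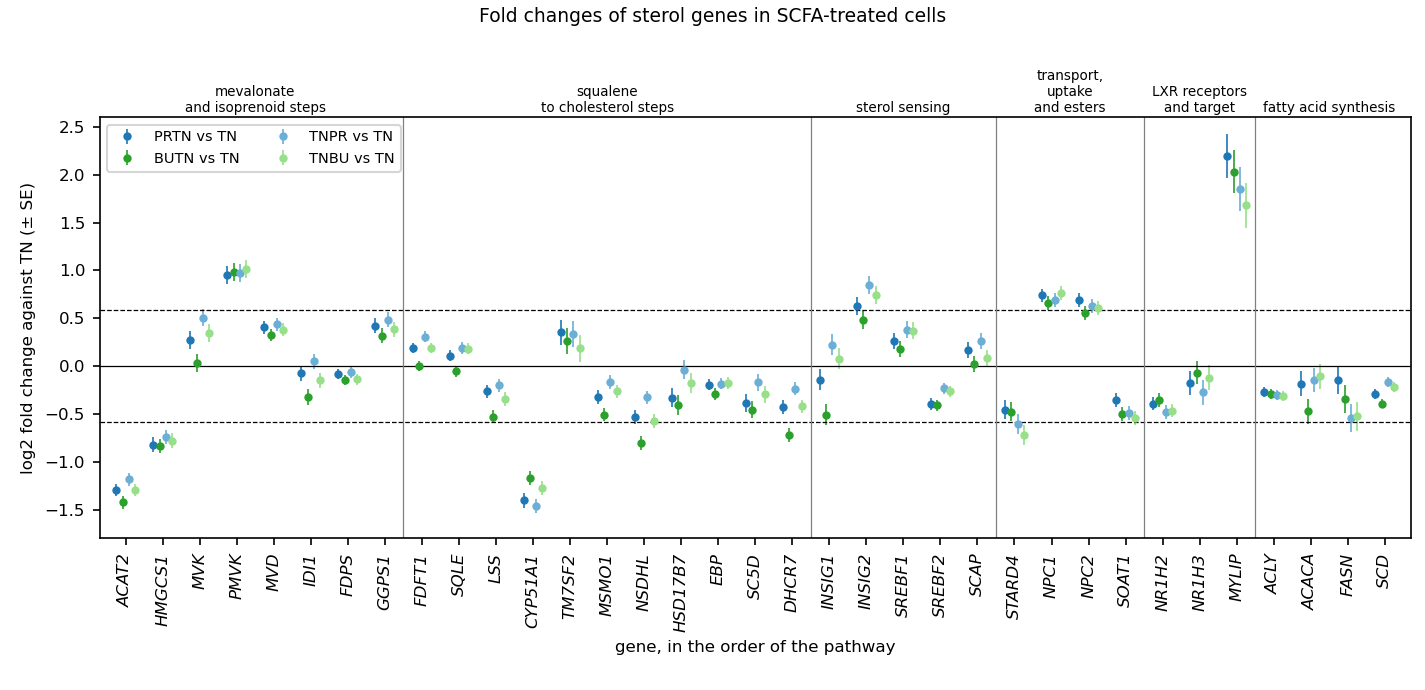
Log2 fold change against TN (y axis, points; bars, SE of the fit) of 35 sterol genes in the order of the pathway (x axis), for PRTN, BUTN, TNPR and TNBU. Dashed lines mark a 1.5-fold change. ACAT2, HMGCS1 and CYP51A1 lie below the lower line and PMVK, NPC1 and MYLIP above the upper line in all 4 groups, and most other genes lie between the lines.

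Of the 11 members between squalene and cholesterol, 1 was called down in every SCFA group against TN and none was called up. A pair, NSDHL and DHCR7, was called down against TN in BUTN alone. Both were lower in the other SCFA groups too, inside the 1.5-fold limit. Neither was called between PRTN and BUTN or between TNBU and BUTN. CYP51A1, the demethylase that acts on lanosterol (chr7:92084987-92134803), had 83.5 and 83.6 CPM in Ctrl and 97.7 and 102 in TN. PRTN had 37.6 and 37.7 CPM, BUTN 44.2 and 44.4, TNPR 37.7 and 34.5, and TNBU 44.9 and 37.9. No SCFA library came near the others. CYP51A1 fell 2.65-fold in PRTN (-1.40 ± 0.08, adjusted p = 1.58e-08), 2.25-fold in BUTN (-1.17 ± 0.08, 8.36e-08), 2.76-fold in TNPR (-1.46 ± 0.08, 1.15e-08) and 2.42-fold in TNBU (-1.27 ± 0.08, 4.1e-08). AKAP9 and an antisense RNA overlap it on the opposite strand, and AKAP9 had log2 fold changes of -0.36 to -0.67 in the same comparisons.

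The enzymes that flank CYP51A1 did not share its size of change. SQLE, the squalene epoxidase, had 86.9 and 92.4 CPM in Ctrl and 105 and 98.6 in TN, while PRTN had 108 and 111, BUTN 97.0 and 98.5, TNPR 113 and 119, and TNBU 117 and 114. Its log2 fold changes were 0.11 (adjusted p = 0.143), -0.06 (0.455), 0.19 (0.0167) and 0.18 (0.0209), each ± 0.06, so the SCFA libraries were near or above TN. LSS, which closes the ring to lanosterol, had 134 in both Ctrl libraries and 139 and 155 CPM in TN, while PRTN had 123 and 121, BUTN 103 and 99.9, TNPR 134 and 121, and TNBU 118 and 113. BUTN was again the lowest group, with log2 fold changes of -0.27 (adjusted p = 0.0051), -0.53 (3.2e-05), -0.20 (0.0236) and -0.35 (0.000909), each ± 0.07 and inside the 1.5-fold limit. MSMO1, the methyl oxidase after CYP51A1, had 67.6 and 65.0 CPM in Ctrl and 76.2 and 73.3 in TN, while PRTN had 59.3 and 60.0, BUTN 49.7 and 55.5, TNPR 63.6 and 69.5, and TNBU 63.9 and 60.5. All SCFA libraries lay below TN, by -0.33 (adjusted p = 0.00173), -0.51 (6.37e-05), -0.17 (0.0576) and -0.27 (0.00673), each ± 0.07. Leaving out 1 library took LSS (-0.64, without TN replicate 1) and MSMO1 (-0.60, without BUTN replicate 2) past the limit in BUTN.

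DHCR7, the reductase of the last step (chr11:71428193-71452868), had 149.6 and 156 CPM in Ctrl and 144 and 167 in TN, while PRTN had 113 and 118, BUTN 95.8 and 93.0, TNPR 129 and 134, and TNBU 116 and 116. The SCFA libraries were all below TN, and those of BUTN were the lowest. DHCR7 fell 1.65-fold in BUTN (-0.72 ± 0.07, adjusted p = 3.01e-06), with -0.43 (0.000198), -0.24 (0.011) and -0.42 (0.000235), each ± 0.07, in PRTN, TNPR and TNBU. Scaling by library size alone brought its value in BUTN to -0.57, inside the limit. NSDHL, a sterol dehydrogenase, was alike: 34.1 and 38.6 CPM in TN, 21.0 and 20.7 in BUTN and 24.3 to 29.2 in the other SCFA libraries. NSDHL fell 1.74-fold in BUTN (-0.80 ± 0.07, adjusted p = 1.81e-06) and had -0.57 ± 0.07 (adjusted p = 2.89e-05) in TNBU. Its value in TNBU passed the 1.5-fold limit in 11 of 21 other fits. These were the 9 fits that left out TN replicate 1 or any 1 library of PRTN, BUTN, TNPR or TNBU (-0.59 to -0.68). The others used edgeR's default filter (-0.595) or no filter beyond a count of 1 (-0.598). FDFT1, TM7SF2, HSD17B7, EBP and SC5D had log2 fold changes between -0.46 and 0.35 and were not called.

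The 5 genes of sterol sensing were mixed. SREBF2 had 226 and 224 CPM in Ctrl and 208 and 228 in TN, while PRTN had 166 and 165, BUTN 168 and 159.7, TNPR 187 and 184, and TNBU 187 and 177. Each SCFA library was below each library without SCFA, although no change reached 1.5-fold. The log2 fold changes were -0.40 (adjusted p = 8.1e-05), -0.41 (6.92e-05), -0.23 (0.0043) and -0.26 (0.00199), each ± 0.06. SREBF1, the paralog more tied to fatty acid synthesis, had 76.9 and 84.2 CPM in Ctrl and 73.4 and 87.2 in TN, while PRTN had 96.2 and 95.6, BUTN 95.6 and 85.7, TNPR 109 and 99.1, and TNBU 103 and 104. Its values lay on the other side of TN, at 0.26 (adjusted p = 0.0227), 0.18 (0.108), 0.38 (0.0025) and 0.37 (0.00316), each ± 0.09. SCAP, the escort, had log2 fold changes of 0.02 to 0.26 and was not called.

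The INSIG genes, which encode the retention proteins, differed from each other. INSIG2 (chr2:118088452-118110997) had 40.3 and 44.1 CPM in Ctrl and 51.3 and 49.1 in TN, while PRTN had 76.7 and 78.3, BUTN 67.1 and 73.0, TNPR 82.0 and 99.8, and TNBU 79.9 and 88.4. Every SCFA library was above TN. INSIG2 rose 1.54-fold in PRTN (0.63 ± 0.10, adjusted p = 0.00011), 1.80-fold in TNPR (0.85 ± 0.09, 7.19e-06) and 1.67-fold in TNBU (0.74 ± 0.10, 2.62e-05), and had 0.48 ± 0.10 (0.00101) in BUTN. The call in PRTN was lost without TN replicate 2 (0.56) or PRTN replicate 2 (0.58). INSIG1, a classic target of the sterol-responsive factors (chr7:155297776-155310235), had 33.0 and 32.3 CPM in Ctrl and 41.9 in both TN libraries, while PRTN had 38.4 and 37.6, BUTN 29.7 and 29.2, TNPR 44.2 and 54.3, and TNBU 39.7 and 49.2. The PRTN and BUTN libraries were below TN, and those of TNBU lay on both sides of it. Against TN its log2 fold changes were -0.14 (adjusted p = 0.287), -0.51 (0.00172), 0.22 (0.0875) and 0.08 (0.563), each ± 0.11, with no call.

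**Figure D5:**
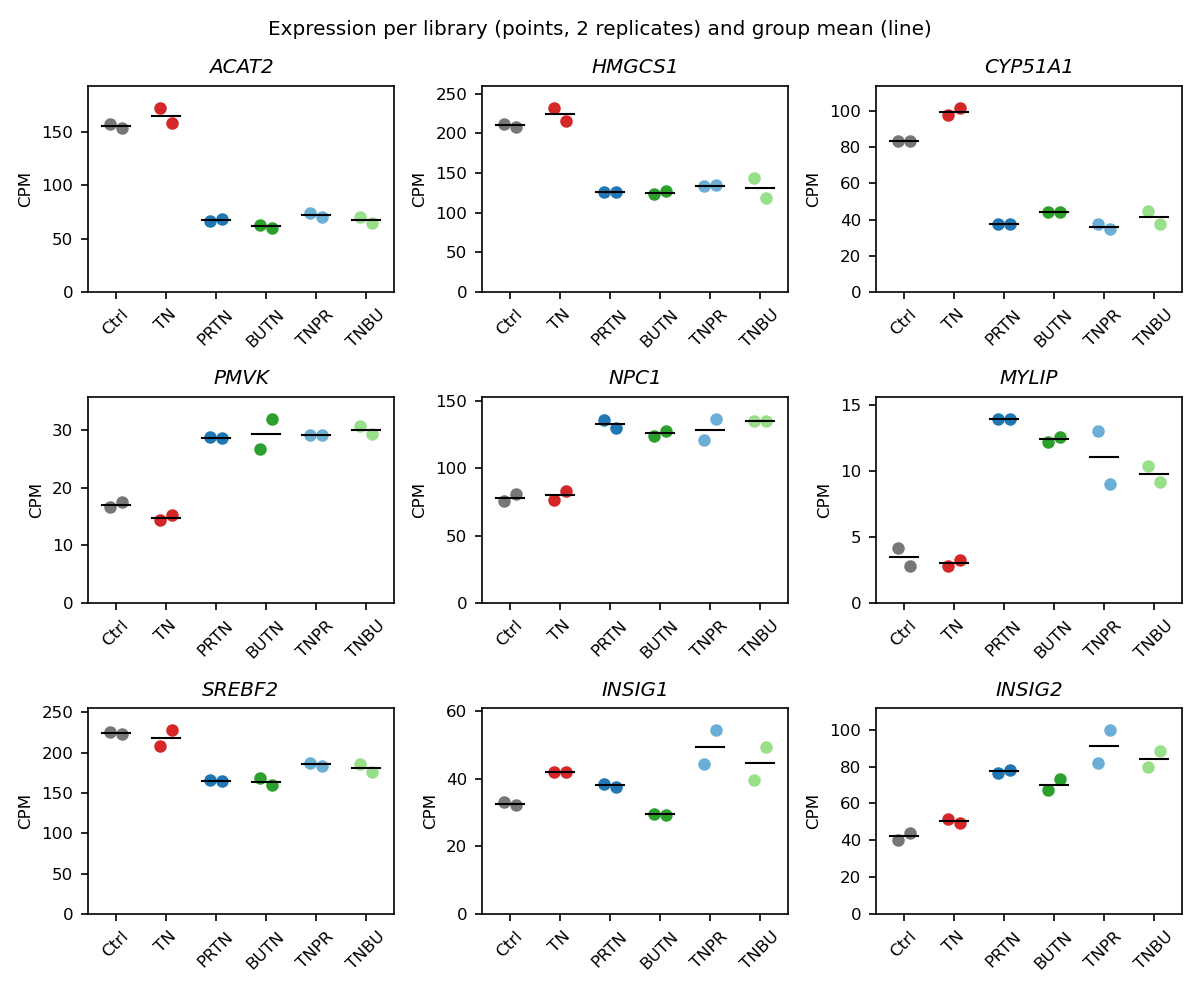
CPM (y axis, from 0) of 9 sterol genes in each library (points, 2 per group) with the group mean (line), by group (x axis). ACAT2, HMGCS1 and CYP51A1 are lower and PMVK, NPC1, MYLIP and INSIG2 higher in all 8 SCFA libraries than in Ctrl or TN. INSIG1 spans 29.2 CPM in BUTN to 54.3 CPM in TNPR.

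Of the 5 members of transport, uptake and esterification, 2 to 3 rose against TN and STARD4 fell in the later groups. NPC1, the membrane protein that passes cholesterol out of the lysosome (chr18:23506184-23586506), had 75.8 and 80.9 CPM in Ctrl and 76.4 and 83.4 in TN, while PRTN had 136 and 130.2, BUTN 124 and 128, TNPR 121 and 137, and TNBU 135 in each library. The SCFA libraries did not overlap the others. NPC1 rose 1.67-fold in PRTN (0.74 ± 0.07, adjusted p = 2.19e-06), 1.58-fold in BUTN (0.66 ± 0.07, 7.26e-06), 1.61-fold in TNPR (0.69 ± 0.07, 4.1e-06) and 1.70-fold in TNBU (0.76 ± 0.07, 1.79e-06). It slipped under 1.5-fold in BUTN without TN replicate 1 (0.57) and in TNPR without TNPR replicate 2 (0.54). RMC1, on the opposite strand of NPC1 and listed as C18orf8, had log2 fold changes of 0.19 to 0.53.

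NPC2, the soluble partner that hands cholesterol to NPC1, had 82.7 and 91.5 CPM in TN and 126 to 142 CPM in the SCFA libraries. It rose 1.61-fold in PRTN (0.69 ± 0.07, adjusted p = 5.15e-06), 1.55-fold in TNPR (0.63 ± 0.07, 1.18e-05) and 1.52-fold in TNBU (0.61 ± 0.07, 1.79e-05), and had 0.55 ± 0.07 (4.28e-05) in BUTN. These values lie at the limit: leaving out single libraries, of nearly every group, gave 0.49 to 0.58 in TNPR and 0.51 to 0.58 in TNBU where the call was lost, and 0.60 in BUTN without TN replicate 2. The call in TNBU was also lost with edgeR's default filter or no filter beyond a count of 1 (0.58 each). With scaling by library size alone, the value in BUTN passed the limit (0.71).

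NPC1L1, the sterol importer of gut and liver, was almost silent. Its counts were 5 and 3 in Ctrl and 1 and 1 in TN, while PRTN had 8 and 12, BUTN 21 and 15, TNPR 8 and 19, and TNBU 14 and 12, in libraries of some 30545923 counts. With 2 counts in TN, the ratio to TN was 8.11 in PRTN (95% counting interval 1.97 to 71.6), 14.8 in BUTN (3.81 to 127), 11.4 in TNPR (2.85 to 98.6) and 12.1 in TNBU (3.03 to 105), intervals that cover counting error only. The gene passed the test in all 4 groups (adjusted p = 0.0185, 0.00272, 0.00784 and 0.00482), but not in PRTN without either TN library or PRTN replicate 2 (adjusted p = 0.0723 to 0.108), nor in TNPR without either TN library (0.0614 and 0.0658).

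STARD4, which carries cholesterol through the cytosol (chr5:111496033-111512590), had 63.1 and 56.1 CPM in Ctrl and 72.4 and 63.5 in TN, while PRTN had 50.6 and 48.1, BUTN 49.4 and 48.0, TNPR 44.7 and 44.3, and TNBU 46.4 and 36.7. All SCFA libraries were below the others. STARD4 fell 1.52-fold in TNPR (-0.61 ± 0.10, adjusted p = 0.000226) and 1.65-fold in TNBU (-0.72 ± 0.10, 6.75e-05), with -0.46 (0.00182) and -0.48 (0.00144), each ± 0.10, in PRTN and BUTN. These calls were lost with scaling by library size alone (-0.43 in TNPR, -0.52 in TNBU), in TNPR without TN replicate 1 (-0.54) and in TNBU without TNBU replicate 2 (-0.57), while without TN replicate 2 the value in BUTN passed the limit (-0.60). SOAT1, the esterifying enzyme that stood higher in TN than in Ctrl, had log2 fold changes of -0.35 to -0.55 against TN and was not called.

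MYLIP, the target of LXR, was called in every SCFA group and neither receptor gene was called in any. MYLIP (chr6:16129086-16148248) had 4.19 and 2.80 CPM in Ctrl and 2.79 and 3.27 in TN, while PRTN had 13.9 in each library, BUTN 12.2 and 12.6, TNPR 13.1 and 9.05, and TNBU 10.4 and 9.19. The lowest SCFA library was above the highest of the others by a wide margin. MYLIP rose 4.58-fold in PRTN (2.20 ± 0.23, adjusted p = 3.48e-06), 4.09-fold in BUTN (2.03 ± 0.23, 8.79e-06), 3.60-fold in TNPR (1.85 ± 0.23, 1.87e-05) and 3.21-fold in TNBU (1.68 ± 0.24, 5.14e-05). NR1H3, the inducible LXR, had 5.56 and 5.59 CPM in Ctrl and 5.25 and 4.99 in TN, while PRTN had 4.66 and 4.38, BUTN 4.79 and 4.97, TNPR 4.03 and 4.45, and TNBU 4.45 and 4.95. Its libraries with SCFA were at or under those of TN, and its log2 fold changes of -0.18 (adjusted p = 0.25), -0.07 (0.669), -0.28 (0.0848) and -0.12 (0.44), with SE of 0.12 to 0.13, did not pass the test. NR1H2, the widely expressed LXR, had 32.0 and 34.5 CPM in TN and 23.6 to 26.4 CPM with SCFA, that is log2 fold changes of -0.36 to -0.48, with no call.

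None of the 4 fatty acid synthesis genes, which answer to SREBF1 and share acetyl-CoA with the sterol pathway, was called against TN. ACLY, which makes cytosolic acetyl-CoA, had 386 and 391 CPM in Ctrl and 392 and 409 in TN, while PRTN had 332 in each library, BUTN 328 and 327, TNPR 315 and 336, and TNBU 328 and 317. It was lower in every SCFA library, by -0.27 (adjusted p = 0.00053), -0.29 (0.000336), -0.30 (0.000226) and -0.31 (0.000179), each ± 0.05. SCD, the desaturase, had 594 and 623 CPM in Ctrl and 625 and 651 in TN, while PRTN had 525 and 519, BUTN 485 and 487, TNPR 562 and 572, and TNBU 568 and 527. Here too the SCFA libraries were the lower ones, at -0.29 (adjusted p = 0.000339), -0.39 (3.19e-05), -0.17 (0.0124) and -0.22 (0.00246), each ± 0.05.

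ACACA, the carboxylase of fatty acid synthesis, had 85.6 and 106 CPM in Ctrl and 83.5 and 90.5 in TN, while PRTN had 81.2 and 72.1, BUTN 62.3 and 62.9, TNPR 79.0 and 78.0, and TNBU 94.2 and 69.1. The TNBU libraries straddled those of TN, and the log2 fold changes were -0.18 (adjusted p = 0.25), -0.47 (0.00832), -0.15 (0.358) and -0.11 (0.502), each ± 0.13. FASN, the synthase itself, had 496 and 563 CPM in Ctrl and 500.2 and 599 in TN, while PRTN had 494 and 493, BUTN 457 and 409, TNPR 427 and 332, and TNBU 449.7 and 322. Its replicates spread widely in TNPR and TNBU. FASN had -0.15 (adjusted p = 0.408), -0.34 (0.0654), -0.54 (0.00726) and -0.53 (0.00861), each ± 0.15. Its value in TNPR passed 1.5-fold in 8 fits that left out 1 library (-0.59 to -0.77), and in TNBU without TN replicate 1 (-0.67) or TNBU replicate 1 (-0.80).

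The wider list of 46 genes of sterol, isoprenoid and fatty acid handling was read beside the module. Of these, 45 were tested and CYP7B1 was not. In TN against Ctrl, 1 was called, ACACB, which fell by 0.69 on the log2 scale (adjusted p = 0.000946). Against TN, PRTN and BUTN each had 12 rises and 10 falls in this list, TNPR 12 and 9, and TNBU 10 and 9. The background shares are those given above for all genes. The deepest fall was that of FADS2, a fatty acid desaturase, with 31.9 and 35.8 CPM in TN and 3.46 to 6.05 CPM in the SCFA libraries. It fell in all 4 groups, with log2 fold changes of -3.07, -2.49, -3.20 and -2.91 (SE 0.10 to 0.12).

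The protein prenyltransferases, which attach farnesyl and geranylgeranyl groups made by the pathway to proteins, had 5 subunits in the list, of which 4 fell in every SCFA group. This family was not set apart before the values of the list were known. The share of all tested genes called down in all 4 groups was not counted, and each single comparison called 14.8% to 16.9% of them down. FNTB, a subunit of the farnesyltransferase, had 18.3 and 18.5 CPM in TN and 4.65 to 8.36 CPM with SCFA, and fell in all 4 groups (log2 fold changes -1.89, -1.45, -1.5 and -1.35). FNTA, its other subunit, had 68.3 and 67.6 CPM in TN and 27.6 to 34.5 CPM with SCFA, and fell likewise (-1.17, -1.09, -1.26 and -1.09). PGGT1B (-0.87, -0.83, -1.09 and -1.14) and RABGGTA (-1.05, -0.74, -0.78 and -0.94), subunits of prenyltransferases that use the longer isoprenoid, also fell in all 4 groups. RABGGTB, the partner of RABGGTA, fell in BUTN, TNPR and TNBU (-0.62, -0.67 and -0.85) and had -0.58 in PRTN, inside the limit.

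GRAMD1B, ABCG1 and CH25H were nearly absent from TN, and their ratios to TN rest on 0 or 1 counts there. GRAMD1B, which moves cholesterol from the plasma membrane to the endoplasmic reticulum, had 0 counts in both TN libraries and 47, 61, 59 and 67 counts in PRTN, BUTN, TNPR and TNBU, at least 12.7-, 16.7-, 16.5- and 20.8-fold higher when TN is set at 3 counts over the group. ABCG1, a sterol exporter and LXR target, had 1 count in TN and ratios of 27.7 (95% counting interval 4.63 to 1121), 39.4 (6.75 to 1590.2), 37.0 (6.31 to 1495) and 54.1 (9.33 to 2172). CH25H, which makes an oxysterol, had 1 count in TN, while PRTN had 12, BUTN 18, TNPR 47 and TNBU 48, with ratios of 9.74 (1.44 to 416), 14.8 (2.34 to 616), 39.5 (6.76 to 1595) and 44.8 (7.66 to 1804). ABCG1 and CH25H passed the filter on low counts only through the SCFA groups, so their place among the rises was set in part by the filter. A pair of better-expressed risers was picked after their values were seen. LIPA, the lysosomal lipase that frees cholesterol from its esters, had 57.6 and 55.9 CPM in TN and 187 to 222 CPM with SCFA (log2 fold changes 1.94, 1.77, 1.95 and 1.88). LPCAT3, an LXR target of phospholipid remodelling, had log2 fold changes of 1.41, 1.10, 1.53 and 1.30. LXR targets were not followed as a set in this list, and its genes did not all rise. RNF145 was called down in all 4 groups (-0.81, -0.89, -0.88 and -0.96), and PLTP was not called in any (0.51, 0.38, 0.52 and 0.48).

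Propionate and butyrate were given at different doses, so PRTN against BUTN compares these groups and not the compounds. None of the 36 members was called between PRTN and BUTN (0.168% of all genes were), with 11 at an unadjusted p under 0.05 against 14% of all genes, and edgeR and DESeq2 also called 0. Of these 11, 7 were among the squalene to cholesterol genes. For HMGCS1 the log2 difference of PRTN minus BUTN was 0.01 (95% interval -0.16 to 0.18), for DHCR7 0.29 (0.14 to 0.45, adjusted p = 0.0908) and for CYP51A1 -0.23 (-0.41 to -0.06, adjusted p = 0.208). Between TNPR and TNBU 0 members were called by limma-voom, edgeR or DESeq2 (0.00822% of all genes by limma-voom), and 5 had an unadjusted p under 0.05 against 8.61% of all genes. There the difference was 0.04 for HMGCS1 (-0.13 to 0.21) and -0.19 for CYP51A1 (-0.37 to -0.01, adjusted p = 0.562).

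The order of SCFA and TNF-α was compared for each SCFA. Between TNPR and PRTN 0 members were called by the 3 tools (0.16% of all genes by limma-voom), and 12 had an unadjusted p under 0.05 against 11.2% of all genes. For MYLIP the difference was -0.35 (95% interval -0.68 to -0.02, adjusted p = 0.413), which did not pass the test. Between TNBU and BUTN 1 member was called, INSIG1, against 0.0945% of all genes called up, and 14 had an unadjusted p under 0.05 against 14.4%. INSIG1 had 29.7 and 29.2 CPM in BUTN and 39.7 and 49.2 CPM in TNBU, a log2 difference of 0.59 (0.35 to 0.82, adjusted p = 0.0334), at the very edge of the 1.5-fold limit. This call was lost on leaving out any 1 of 11 of the 12 libraries, with 0.43 (adjusted p = 0.153) without TNBU replicate 2, and was kept without TNBU replicate 1 (0.72, adjusted p = 0.00701). DHCR7 had a difference of 0.30 (0.14 to 0.45, adjusted p = 0.0855) in the same comparison.

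Against untreated cells, PRTN had 5 rises and 3 falls among the members (22.6% and 16.9% of all genes), BUTN 5 and 6 (22% and 14.9%), TNPR 6 and 3 (23.6% and 16.8%) and TNBU 6 and 4 (23.6% and 16.5%). ACAT2, HMGCS1 and CYP51A1 were called down, and PMVK, INSIG2, NPC1 and MYLIP up, in all 4 groups. INSIG2 had log2 fold changes of 0.88, 0.73, 1.10 and 0.99 against Ctrl in PRTN, BUTN, TNPR and TNBU. INSIG1 was called up in TNPR (0.59 ± 0.11, adjusted p = 0.000496), at the very edge of the 1.5-fold limit. ACACA was called down in BUTN (-0.61 ± 0.13, adjusted p = 0.00169), near that limit. NSDHL was called down in BUTN and TNBU, DHCR7 down in BUTN, NPC2 up in PRTN, TNPR and TNBU, and NPC1L1 up in BUTN and TNBU. These comparisons share the Ctrl libraries, and their calls were not followed over the other settings.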

How the data were processed

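RNA of HK2 cells was measured in 12 libraries of 6 groups with 2 biological replicates each, grouped by the label of each library. For each gene the authors deposited an expected count, obtained from stranded mRNA libraries with STAR 2.6.1a and RSEM on GRCh38 and GENCODE release 26. Expected counts need not be whole (18.0% to 20.1% of values were not), and RSEM's strand setting is not given in the sources used here. Of the 36 members, 21 overlap a protein-coding or lncRNA gene (19 on the opposite strand, 4 on the same), and 19 had counts that were not whole in some library.

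Counts were used as deposited in limma 3.58.1 (voom, R 4.3.3) with TMM factors from edgeR 4.0.16. Genes with a geometric mean of the count plus 1, minus 1, of at least 1 were kept (33936 were removed). All libraries entered a fit of 6 group means, with Benjamini-Hochberg adjustment over all kept genes. Genes over 1.5-fold with an adjusted p under 0.05 were called. With 2 replicates a group, p-values rest on a spread for each gene pooled over all 12 libraries and moderated across genes. They take in only the spread between these samples. The scripts were checked on simulated data. Alternatives were edgeR's quasi-likelihood test and DESeq2 1.42.0 (rounded counts), other scalings and filters, fits of only the groups compared, the replicate number as a block, and leaving out each library. The numbers of the replicates did not serve as pairs: deviations of same-numbered libraries correlated by -0.0791 to 0.240 over 15 pairs of groups, with 1 over 0.1. Positions come from GENCODE release 44 (GRCh38), and upstream sequences from RefSeq (GRCh38.p14), at the start nearest to the canonical one.

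All members are accounted for. Full values are given for a fixed list and for every member called alike in all 4 SCFA groups, and other genes by ranges and counts. The members and lists were chosen with earlier results of these data known.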

Additional observations from a re-analysis of the deposited data

Results flagged for a closer look

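INSIG1, which encodes a protein that holds the sterol sensor SCAP in the endoplasmic reticulum, differed between the orders of treatment with butyrate. It was higher in TNBU than in BUTN, with a log2 difference of 0.59 (adjusted p = 0.0334 in limma-voom), and both TNBU libraries were above both BUTN libraries. Over all settings tried the difference ranged from 0.43 to 0.72, and the adjusted p from 0.000328 (DESeq2) to 0.255 (without BUTN replicate 1). The TNBU cells were also cultured with TNF-α given at an earlier time before harvest, and this cannot be told apart from the order of treatment.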

How the results depend on the processing

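Members' values in TN against Ctrl and in the 4 SCFA groups against TN were followed over all settings. Of these, 3710 kept their side of the threshold, 36 passed it and 34 fell short of it. No value of a called member reversed its sign. Values that were not called were left out of that check, and some changed sign (IDI1 in TN against Ctrl, -0.06 to 0.19). Counts of members called up against TN stayed within 1.5 times those reported in each setting, at 3 to 9. With scaling by library size alone, the median log2 fold change of all genes against TN shifted by 0.156, 0.153, 0.173 and 0.196 in PRTN, BUTN, TNPR and TNBU, the members called down numbered 2 in TNPR and 2 in TNBU (4 each as reported), and 1 was called down in TN against Ctrl. With no filter beyond a count of 1, that median shifted by -0.174 to -0.192 with the members' counts near the main ones.

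The member called between TNBU and BUTN was not called (0 members) with relative log expression size factors, with no filter, with a geometric mean that any 0 removes or in a fit of only the groups compared. Leaving out 1 library gave 0 to 1 members called there, 0 to 1 called down in TN against Ctrl, and 4 to 7 called down in TNBU against TN (7 without TNBU replicate 1). The fit with the replicate number as a block, run although the numbers do not pair the samples, gave INSIG1 a difference of 0.59 (adjusted p = 0.0262) between TNBU and BUTN and changed no count of called members by over 1.5 times. Depth limits NPC1L1, whose ratios rest on 2 counts in TN.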
